A study of Sus scrofa with 5 samples.

Results

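Fibroblasts of the piglet cecum were compared between d14 and d1, the libraries made 14 days and 1 day after birth. A cell was taken as a fibroblast if it had at least 200 detected genes and at least 5 counts in all of COL1A1, COL1A2, COL3A1, DCN and LUM, with at least 2 of these genes detected. It also had at most 2 counts each of RGS5 and ACTG2, which mark pericytes and smooth muscle, and 0 counts of PTPRC and EPCAM, which mark leukocytes and epithelium. This left 1811 of 14142 cells at d1 and 1724 of 16177 cells at d14, or 3535 of the 30319 cells of both libraries. The whole series holds 72701 such cells over 5 ages, and the same rule found 76 fibroblasts at d0, 166 at d7 and 664 at d21.

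The libraries hold male pigs' cecal cells taken at d0, d1, d7, d14 and d21, which the study prepared from pure-line Large White piglets fed maternal milk alone. No gene was altered and no treatment was given at any age, so age is what separates the groups. Each library combines the cells of 5 piglets of 1 age, and therefore the piglets of an age cannot be separated, age and library cannot be told apart, and no test between ages is possible. The cells were released with EDTA, a chelator that loosens epithelium, followed by a short trypsin step, so the fibroblasts are those that came off the mucosa under this protocol. The rule selected cells by their counts in the same libraries, so every value here is a description of these libraries.

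Intestinal fibroblasts make the collagen, fibronectin and proteoglycans that hold the mucosa, and they also speak to the cells around them. Those near the epithelium secrete WNT and BMP proteins, which set where crypt cells divide and mature. Those deeper in the lamina propria secrete chemokines, complement proteins and enzymes that make retinoic acid, which serve the leukocytes that settle in the gut after birth.

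The cells carried the genes expected of their name. The 5 fibroblast genes COL6A3, PDGFRA, MFAP4, FBLN1 and COL5A1, which were not part of the rule, summed to 19.7 UMIs (unique molecular identifiers, each marking 1 captured RNA molecule) per 10000 counts at d1 and 28.1 at d14, and each of the 5 was above its level in the other kept cells of both libraries. At least 1 of them was detected in 93.9% of the cells at d1 and 95.5% at d14. Of the 4 mesothelium genes, MSLN was not in the counts. The other 3 summed to 0 at d1 and 0.00407 at d14, against 0.00239 and 0.00166 in the other kept cells. The glial list summed to 0.289 at d1 and 0.340 at d14, above the 0.162 and 0.238 of the other kept cells. Several other lists had higher sums. The pericyte list summed to 1.704 at d1 and 1.192 at d14, against 0.498 and 0.983 in the other kept cells. The endothelial list summed to 6.72 and 1.65, against 8.44 and 1.16. At least 1 endothelial gene was detected in 44.3% of the fibroblasts at d1 and 27.6% at d14. For the myeloid list these shares were 51.8% and 73.6%, and its sums were 32.5% and 17.4% of those in the other kept cells. The 6 smooth muscle genes summed to 12.1 at d1 and 32.3 at d14, against 2.53 and 16.2 in the other kept cells. Most of the sum in fibroblasts was ACTA2 and TAGLN, which fibroblasts can also express. DES stood at 0.200 and 0.102, CNN1 at 0.122 and 0.327 and MYH11 at 1.42 and 2.55. RNA of other cell types was also counted. The 10 epithelial genes summed to 7.41 at d1 and 0.644 at d14, against 78.4 and 12.7 in the other kept cells, and EPCAM was at 0 by the rule. The T cell list went the other way, from 0.363 at d1 to 3.92 at d14, against 3.75 and 66.8 in the other cells. At least 1 epithelial gene was detected in 83.5% of the fibroblasts at d1 and 18.5% at d14. For T cell genes these shares were 3.59% and 63.7%. The B or plasma cell list summed to 0.0949 and 4.56, against 0.174 and 27.2, with shares of 1.21% and 23.8%.

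The fibroblasts held 4847635 counts at d1 and 7380075 at d14, with a median of 2496 and 3842 UMIs per cell, and 2 barcodes occurred in both libraries. Their share of the kept cells was 12.8% at d1 (exact Clopper-Pearson 95% interval 12.3 to 13.4) and 10.7% at d14 (10.2 to 11.1), where intervals cover counting error only. The cells that the rule removed differed between d1 and d14. Whether fibroblasts that held RNA of other cells were among them was not tested. Of the cells that passed the matrix genes, 3524 at d1 and 3327 at d14, a count of EPCAM was present in 1428 and 70, one of PTPRC in 125 and 837, and more than 2 counts of RGS5 or ACTG2 in 408 and 972. The median fibroblast had 25 counts of the 5 matrix genes at d1 and 76 at d14, and 53 and 46 cells sat on the limit of 5 counts, with 62 and 60 just below it. COL1A1 stood at 10.8 per 10000 at d1 and 27.5 at d14, COL1A2 at 21.5 and 41.4, COL3A1 at 55.4 and 97.3, DCN at 17.4 and 20.8, and LUM at 4.40 and 12.3. These 5 genes chose the cells, and their values are not a result.

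Gene levels below are summed UMIs per 10000 counts of the fibroblasts of a library. Log2 ratios are d14 over d1 with 0.1 added to both levels, which understates the change of low genes, whereas folds are ratios of the levels themselves with an exact 95% interval for counting error. A gene was called higher or lower when the log2 ratio was at least 1 or at most -1, and 2-fold in the counts of called genes refers to this ratio. Of 8903 genes with a mean level of at least 0.1, 348 (3.91%) were higher at d14 and 278 (3.12%) were lower, and the median over all of them was 0.15. Ribosomal protein genes took 23.2% of the counts at d1 and 15.5% at d14. With the median set to 0 there were 241 higher and 355 lower genes, and with ribosomal protein genes out of the denominator 306 and 415, so which direction had more genes depended on the scaling. With every cell left out that held a count of any of 8 marker genes of other cell types, PECAM1, CD3E, KRT8 and JCHAIN among them (965 cells remained at d1 and 1034 at d14), 411 genes were higher and 270 lower. Among the higher genes, 240 of 348 (69.0%) were at d14 at a level at least 2 times that of the other kept cells, against 2333 (26.2%) of all measured genes. Among the lower ones 52 of 278 (18.7%) were so at d1, against 1832 (20.6%) of all. The d14 fibroblast level enters both the call of higher genes and this comparison, as does the d1 level for lower genes. These shares are therefore partly set by the selection and are not results about the called genes.

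**Figure D1:**
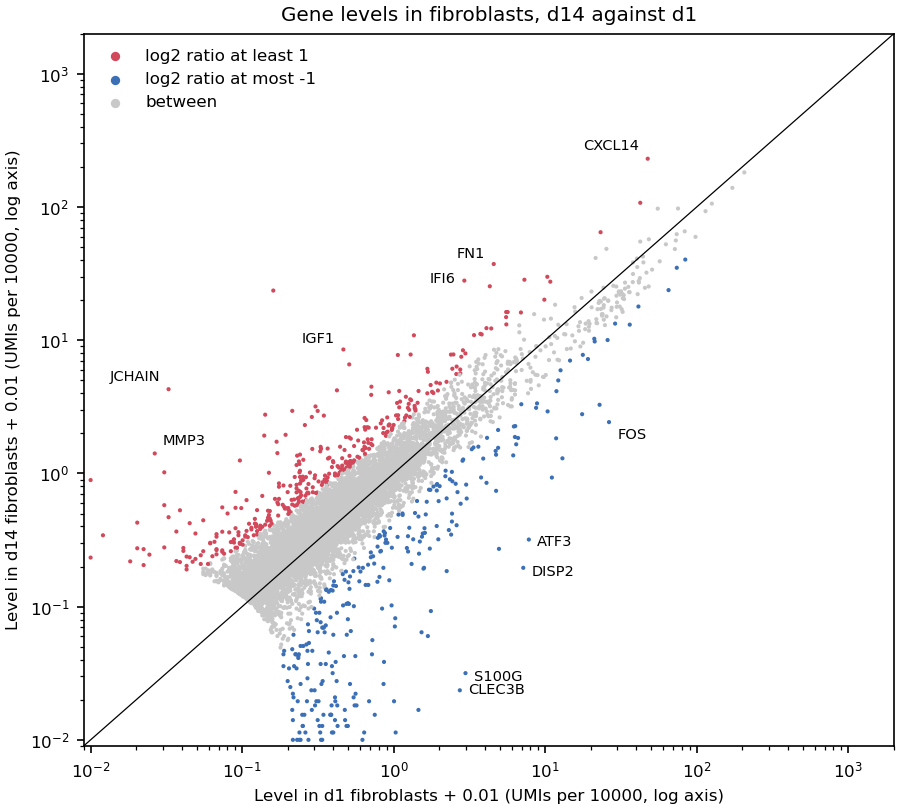
Level of each of the 8903 measured genes in d1 fibroblasts (x axis) against d14 fibroblasts (y axis), as UMIs per 10000 with 0.01 added, both axes logarithmic. Red points are the 348 genes at least 2-fold higher at d14, blue points the 278 at least 2-fold lower, and the line marks equal levels; CXCL14, FN1 and IGF1 lie above it and FOS, ATF3 and CLEC3B below.

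IGF1, a growth factor that acts on epithelium and muscle and whose locus lies at chr5:81762027-81909253 of Sscrofa11.1 (RefSeq), was at 0.456 per 10000 at d1 and 8.52 at d14. This was 18.7-fold higher (16.3 to 21.5), and the levels at d0, d7 and d21 were 0.249, 1.75 and 4.77. The 3 oldest libraries therefore all lay above the 2 youngest. After thinning each cell to 2000 UMIs, IGF1 was detected in 7.15% of d1 fibroblasts (5.78 to 8.72) and 64.0% of d14 fibroblasts (61.2 to 66.6), with 566 and 459 shallower cells left out. Without thinning the shares were 8.23% and 69.0%, and in cells with PTPRC and no matrix gene the thinned shares were 3.33% and 1.48%.

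FN1, which encodes fibronectin (chr15:117658158-117737145), stood at 4.57 at d1 and 37.3 at d14, 8.17-fold higher (7.83 to 8.54), with 8.09, 19.9 and 29.4 at d0, d7 and d21. COL14A1, a collagen that sits on fibril surfaces (chr4:18690197-18925111), was at 0.499 and 6.58, 13.2-fold higher (11.6 to 15.1). It stood at 0.996 at d0, 2.87 at d7 and 8.33 at d21. As for IGF1, d7, d14 and d21 all lay above d0 and d1 for both matrix genes. The thinned share of fibroblasts with COL14A1 was 8.51% at d1 and 64.0% at d14.

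SFRP1, a secreted WNT antagonist, was at 0.204 at d1 and 2.94 at d14, with 0.311, 1.82 and 3.04 at d0, d7 and d21. CLU, a secreted chaperone that restrains complement, went from 0.130 to 1.91, and A2M, a broad protease inhibitor, from 0.413 to 4.20. SLIT3, a secreted guidance protein, was at 0.278 and 2.64. For these 4 genes d7 lay between the d1 and d14 levels except for SLIT3, which was at 3.36 at d7. AMCF-II, a chemokine that draws neutrophils, had 0.0206 at d1 and 1.01 at d14, and was at 1.86 at d7 and 1.18 at d21. ISG12(A), an interferon-stimulated gene, was at 1.35 and 10.9, and FAM111A, a protease of the nucleus, at 0.184 and 1.94.

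MMP1 and MMP3, which lie close together on chromosome 9 (chr9:33411738-33420205 and chr9:33446969-33453995) and encode a collagenase and a stromelysin, followed another course over the ages. MMP1 was at 0.132 at d1 and 2.75 at d14, 20.8-fold higher (16.3 to 27.2), but at 0.622, 1.03 and 0.118 at d0, d7 and d21. MMP3 was at 0.0165 and 1.40, 85.0-fold higher (43.0 to 197) from 8 counts at d1, and at 0.0622, 2.14 and 0.155 at d0, d7 and d21. Of the 5 libraries, d7 and d14 had the highest levels of both. They were found in a minority of the cells, with 11.5% of the thinned d14 fibroblasts carrying MMP3.

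**Figure D2:**
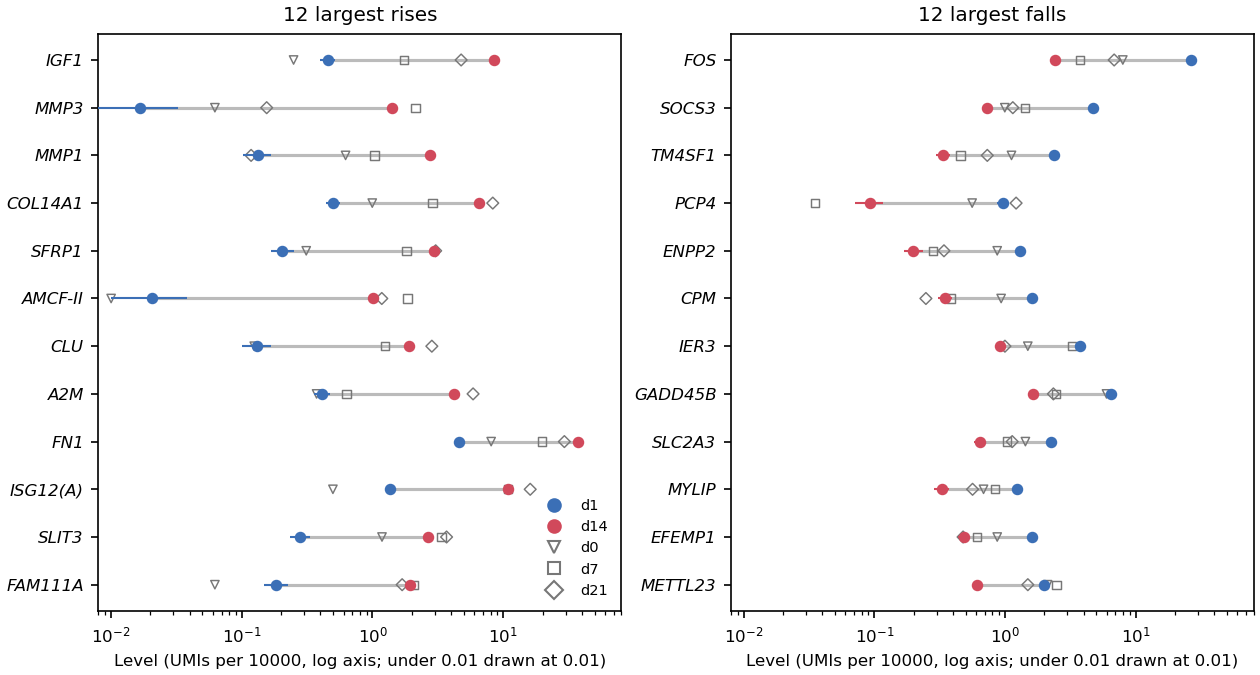
Levels (UMIs per 10000, log axis) of the 12 genes with the largest rises (left) and the 12 with the largest falls (right) by the naming rule, in fibroblasts of d1 (blue) and d14 (red) with exact Poisson 95% intervals, and of d0, d7 and d21 (open symbols, no interval drawn). IGF1 went from 0.456 to 8.52 and FOS from 26.4 to 2.42, and MMP1 and MMP3 were at 0.118 and 0.155 at d21.

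Among genes of the fibrillar collagens and their partners, 3 of 10 measured genes outside the rule were higher and 0 lower. The median log2 ratio was 0.74 against 0.15 for all genes. The counts of this list and of those below stand beside 3.91% higher and 3.12% lower over all measured genes. Those shares include many low genes, whose ratios the added 0.1 draws toward 0, and the lists were not matched for level. Of 615 genes with a mean level of at least 2 over d0 and d21, 64 were higher and 41 lower at d14. The list counts are therefore not compared with genes of like level. The higher ones were COL14A1, COL16A1 (0.639 at d1, 2.12 at d14) and COL6A2 (5.52 and 14.9), which forms beaded filaments with COL6A3 (3.52 and 6.32). COL12A1, a fibril-associated collagen like COL14A1, was at 5.26 and 3.36. Of the elastic fibre and microfibril genes, 5 of 15 were higher and 1 was lower. FBLN1 (1.29 and 7.80), EFEMP2 (1.20 and 2.72), FBLN5 (0.400 and 0.955) and elastin, ELN (0.446 and 1.07), were higher beside FN1. EFEMP1, another fibulin, was lower, at 1.62 and 0.482.

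In the basement membrane list 3 of 18 genes were higher and 1 was lower, with a median of 0.28. COL18A1, which encodes the precursor of endostatin, was at 4.30 at d1 and 25.4 at d14, 5.91-fold higher (5.64 to 6.18), and COL15A1 at 2.97 and 7.96. COL4A1 and COL4A2, the main chains of the basement membrane network, were at 24.2 and 24.8 and at 10.7 and 10.5. COL4A5 was lower, at 2.41 and 1.02. Thus the chains of collagen IV did not share the course of COL15A1 and COL18A1.

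Among proteoglycans and hyaluronan-binding genes 3 of 11 were higher and 1 was lower. VCAN, a large hyaluronan-binding proteoglycan, was at 1.06 and 7.74, 7.33-fold higher (6.69 to 8.04), HAPLN1, its link protein, at 0.237 and 0.873, and FMOD at 0.464 and 1.49. OGN was lower, at 6.95 and 3.30, and of its wider family ASPN (1.33 and 0.766) and OMD (0.171 and 0.0420), had log2 ratios of -0.73 and -0.93, while BGN (1.84 and 3.46), PRELP (0.311 and 0.622) and PODN (0.122 and 0.341) were at 0.88, 0.81 and 0.99. The collagen processing genes had 5 of 20 higher and 0 lower, with log2 ratios from 0.05 to 1.66 and a median of 0.64. SERPINH1, the collagen chaperone, was at 3.39 and 10.9, FKBP10 at 0.627 and 1.70, and the crosslinking enzyme LOX at 0.930 and 2.31. Of the matricellular genes 1 of 15 was higher, SPON2 (2.38 and 7.79), while POSTN was at 6.75 and 11.5 and SPARCL1 at 21.8 and 14.4.

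Matrix proteases and their inhibitors had 9 of 26 higher and 1 lower. Besides MMP1 and MMP3 these were SERPINE2 (0.161 and 1.41), ADAMTS15 (0.126 and 0.668), MMP23B (0.660 and 2.21), SERPINF1 (0.573 and 1.76), ADAMDEC1 (42.4 and 108), MMP14 (0.705 and 1.80) and ADAMTS1 (0.879 and 1.91). MMP2, a gelatinase, was at 3.48 and 3.67, and its inhibitor TIMP2 at 4.68 and 4.94.

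**Figure D3:**
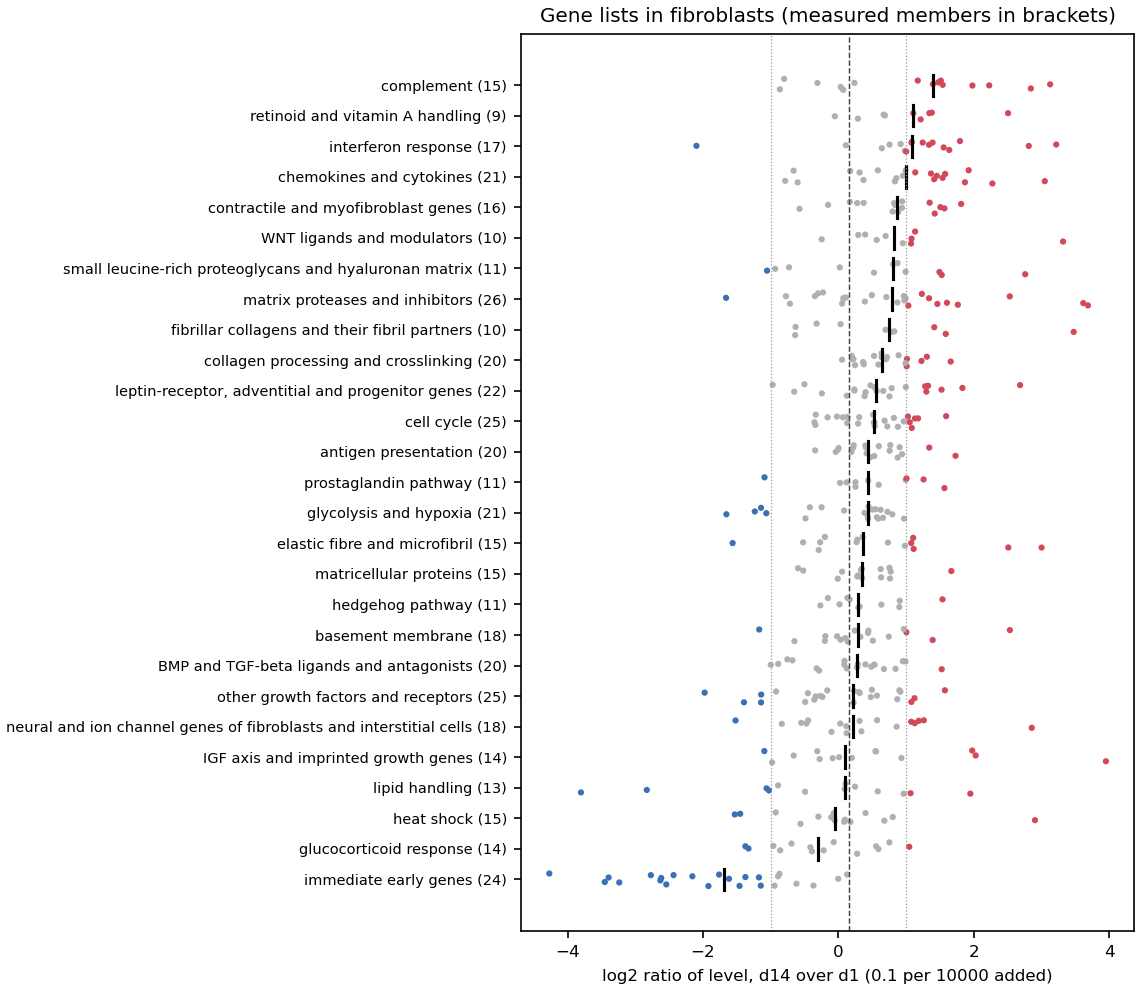
Log2 ratio of d14 over d1 for each measured gene of 27 gene lists, 1 list per row, ordered by median (black bar); the number of measured genes is in brackets, dotted lines mark -1 and 1, and the dashed line the median of all genes, 0.15. Red and blue points are past 2-fold. Complement had the highest median (1.40) and the immediate early genes the lowest (-1.69).

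The signals to epithelium were uneven. Of 10 measured WNT ligands and modulators 4 were higher and 0 lower, namely SFRP1, WNT2B (0.264 and 0.699), WNT5A (1.38 and 3.03) and NKD2 (0.0330 and 0.180). WNT2B acts on crypt cells through β-catenin, and WNT5A mostly outside that pathway. BMP and TGF-β ligands and antagonists had 1 of 20 higher, BMP7, at 0.155 and 0.634, whereas it stood at 1.93 at d7 and 0.124 at d21. BMP4 was at 4.68 and 7.52 and BMP5 at 1.45 and 0.871. The BMP target gene ID1 was at 8.06 and 4.30, and ID3, another target, at 5.67 and 6.90. In the hedgehog pathway, by which epithelium signals to fibroblasts, 1 of 11 was higher, the co-receptor BOC (0.254 and 0.928). The receptor and target PTCH1 was at 3.85 and 3.19, the target HHIP at 3.32 and 3.74, and GLI1 at 0.250 and 0.214. The BMP, hedgehog and matricellular counts rest on 1 gene each, against 3.91% of all genes, and are not results about these lists.

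In the IGF list IGF1 stood apart, with 3 of 14 genes higher and 1 lower and a median of 0.11. IGFBP5, a binding protein, was at 0.918 and 4.06, and the imprinted gene MEST at 0.0639 and 0.546. IGF2, the fetal growth factor of the same family, was at 2.70 and 2.16, the receptor IGF1R at 0.553 and 0.439, and PEG3, an imprinted gene, was lower, at 1.42 and 0.611. Of 25 other growth factors and receptors 3 were higher and 4 lower. NRG1, a ligand of ERBB receptors that supports crypt cells, was at 1.19 and 3.76, 3.14-fold higher (2.87 to 3.45), with 0.311, 4.35 and 1.10 at d0, d7 and d21. KITLG (0.510 and 1.23) and MDK (2.58 and 5.57) were also higher. The lower genes were VEGFA (1.91 and 0.812), HBEGF (0.338 and 0.0989), EREG (0.305 and 0.0542) and ANGPT2 (0.512 and 0.0556), all of them secreted or shed factors. EREG stood higher in the other kept cells, at 3.38 and 0.164, and ANGPT2 in RGS5-high cells (at least 3 counts of RGS5 and none of PTPRC or EPCAM), at 3.42 and 2.71.

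Chemokines and cytokines had 10 of 21 genes higher and 0 lower. CXCL14, a chemokine of epithelium and fibroblasts, was at 47.5 at d1 and 231 at d14, 4.85-fold higher (4.79 to 4.92), and at 46.6, 154 and 85.5 at d0, d7 and d21. It was detected in 92.3% of thinned fibroblasts at d1 and 98.3% at d14. CXCL13, which gathers B cells, was at 0.0970 and 0.621, CCL19, which gathers T cells and dendritic cells, at 0.111 and 0.446, CX3CL1 at 0.0351 and 0.413, and IL34, a growth factor of macrophages, at 0.270 and 1.01. CCL5, also in this list, was at 0.295 and 3.17, but it is a T cell gene and stood at 2.18 and 49.3 in the other kept cells. CXCL12 (2.94 and 3.33), CCL2 (6.88 and 8.58) and IL33 (log2 ratio -0.66) were not called.

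Complement had 9 of 15 genes higher and 0 lower, with a median of 1.40. The proteases of the classical pathway, C1R (5.52 and 16.3) and C1S (3.80 and 11.1), their inhibitor SERPING1 (2.79 and 7.51), and C2 (0.0103 and 0.417), C3 (0.243 and 1.26) and C4A (0.0866 and 1.24) were all higher, as were CFD (23.2 and 64.7) and CLU. C4A has a near-identical copy in many genomes, so its counts are uncertain. The 3 chains of C1Q, which macrophages make, had log2 ratios from -0.86 to -0.31.

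Interferon response genes had 11 of 17 higher and 1 lower, with a median of 1.09. IFI6 was at 2.92 and 28.0, MX1 at 0.159 and 1.72, ISG15 at 0.650 and 2.51 and IFITM3 at 3.73 and 11.2. IFI6 was at 0.685, 26.2 and 55.5 at d0, d7 and d21, and MX1 at 0.0622, 2.14 and 2.68, so that for both genes d7 lay near d14. In the other kept cells IFI6 was at 3.26 and 24.4, a like difference. IRF1 was the lower gene, at 2.42 and 0.489. Of 20 antigen presentation genes 2 were higher, against 3.91% of all genes, and this count is not a result about the list. These 2 were the class I genes SLA-2 (1.67 and 5.79) and SLA-3 (1.25 and 3.32), which share sequence so that reads may be split between them. In the other kept cells, which held more of both, SLA-2 was at 3.22 and 20.8 and SLA-3 at 2.38 and 8.39. Their partner B2M was at 7.25 and 10.1.

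Retinoid genes had 5 of 9 higher and 0 lower. ALDH1A1, which makes retinoic acid, was at 0.703 and 4.47, 6.35-fold higher (5.68 to 7.13), and ALDH1A3, of the same function, at 1.30 and 3.54, while ALDH1A2 was at 0.134 and 0.272. DHRS3, RARRES1 and RARRES2 were higher as well. In the prostaglandin pathway the constitutive synthase PTGS1 was higher, at 0.675 and 2.20, and the inducible PTGS2 lower, at 0.375 and 0.123. The receptor PTGER2 was at 0.202 and 0.623.

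Of the contractile genes 5 of 16 were higher and 0 lower, with FLNA at 1.66 and 6.09, TAGLN at 4.09 and 12.3, ACTA2 at 5.65 and 16.3, MYL9 at 0.755 and 2.20, and TPM1 at 1.75 and 4.60. Of the genes that mark mature smooth muscle, MYH11 (1.42 and 2.55) and CNN1 (0.122 and 0.327) had log2 ratios of 0.80 and 0.94, and DES was at 0.200 and 0.102. In the other kept cells the 6 smooth muscle genes, ACTA2 and TAGLN among them, summed to 2.53 and 16.2. The part of RNA from other cells in the contractile differences was not tested. The list of leptin-receptor, adventitial and progenitor genes had 6 of 22 higher and 0 lower, among them THY1 (0.336 and 2.71) and PDPN (0.357 and 1.53), both surface proteins of activated and lymphoid-tissue fibroblasts. Of 18 neural and ion channel genes 5 were higher and 1 was lower, with SLIT3 and its receptor ROBO2 (log2 ratio 1.26) higher and CADM2 (0.233 and 0.0163) lower. Of 25 cell cycle genes 6 were higher and 0 lower. CENPF was at 0.359 and 1.28, CDK1 at 0.142 and 0.449 and TOP2A at 0.460 and 1.06, whereas HMGB2 and H2AFZ had log2 ratios of -0.35 and -0.33. CENPF was found in 2.81% and 6.56% of thinned cells. In the other kept cells CENPF was at 0.427 and 1.39, and the list had medians of 1.95 in cells with EPCAM and no matrix gene and 1.04 in cells with PTPRC and no matrix gene, against 0.53 in fibroblasts.

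Among the gene lists the lowest median was that of the immediate early genes, which cells switch on within minutes of a stimulus, the isolation of cells included. Of 24 measured genes, 17 were lower and 0 higher, with a median of -1.69. FOS (chr7:98449508-98451971) was at 26.4 at d1 and 2.42 at d14, 10.9-fold lower (10.4 to 11.5), and at 7.97, 3.73 and 6.84 at d0, d7 and d21, so that d1 stood above each other age. JUNB was at 22.9 and 3.27, EGR1 at 17.5 and 2.78, FOSB at 13.0 and 1.29, ZFP36 at 11.1 and 0.921, ATF3 at 7.80 and 0.309, and JUN at 36.2 and 13.1. NR4A2 (0.446 and 0.497) and NR4A3 did not share the direction. FOS was detected in 91.6% of thinned fibroblasts at d1 and 22% at d14, with 71.5% and 43.1% in cells with PTPRC and no matrix gene.

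The 17 lower genes of that list include SOCS3, which damps cytokine signals, at 4.74 and 0.730, IER3 at 3.77 and 0.923 and DUSP1 at 8.83 and 3.35. Outside it, the stress gene GADD45B was at 6.43 and 1.64 and the glucose transporter SLC2A3 at 2.23 and 0.640. The glycolysis and hypoxia list split, with SLC2A3, PFKFB3, VEGFA and ADM lower and none of 21 higher, yet a median of 0.44. PKM, a glycolytic enzyme, was at 2.52 and 5.04. Among heat shock genes 1 of 15 was higher and 2 were lower, namely DNAJB1 (6.34 and 2.26) and DNAJB4 (3.89 and 1.28). HSPA6 was the higher one, at 0.305 and 2.94. It was at 0.509 and 24.0 in cells with PTPRC and no matrix gene, and at 0.133 and 3.56 in RGS5-high cells, and the part of RNA from other cells in its difference was not tested. In the glucocorticoid list DUSP1 and ERRFI1 were lower and HSD11B1, which regenerates cortisol, was higher, at 0.0866 and 0.286, with a median over 14 genes of -0.30. The heat shock and glucocorticoid counts rest on 1 higher and 2 lower genes each, against 3.91% and 3.12% of all genes. They are not results about these lists.

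Few d1 fibroblasts were low in immediate early RNA. The median cell held 142 counts per 10000 of 9 such genes at d1 and 14.2 at d14, and 32 cells at d1 (1.77%) and 681 at d14 (39.5%) were under 10. Within these cells SOCS3, IER3, SLC2A3, IRF1, ERRFI1, DNAJB1, DNAJB4 and PFKFB3 were not lower at d14, with log2 ratios from 0.20 to 1.37, while IGF1 (3.65), FN1 (2.36), COL18A1 (2.12), A2M (5.65) and C4A (3.73) were still higher. In all, 58 of the 82 measured among 85 named genes past 2-fold were still past it, and COL15A1 (0.35), WNT2B (0.43), TAGLN (0.85), NRG1 (0.89) and FLNA (0.90) were not. Nor were the lower genes GADD45B (-0.05), DUSP1 (-0.61) and TM4SF1 (-0.98). These cells were selected for few counts of immediate early genes, and SOCS3 and IER3 belong to that list. Their values here are therefore partly set by the selection. With 32 cells the d1 values are thin, and the part of the response in the other differences was not tested.

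Some falls had no stress gene among them. ENPP2, which makes lysophosphatidic acid, was at 1.30 and 0.199, 6.55-fold lower (5.46 to 7.89), with 0.871, 0.280 and 0.341 at d0, d7 and d21. CPM, a membrane carboxypeptidase, was at 1.60 and 0.348, MYLIP, which targets the LDL receptor for degradation, at 1.23 and 0.328, and TM4SF1, a surface protein, at 2.39 and 0.337. PCP4, a calmodulin-binding protein, was at 0.959 and 0.0921, but at 1.22 at d21. PCP4 and TM4SF1 were at 7.08 and 9.56 in RGS5-high cells of d1, where they also stood at 4.97 and 7.67 at d14. Both were uneven among the d1 fibroblasts. They were at 6.32 and 6.37 in the 222 cells (12.3%) that the marker-list grouping below placed in no list. In the cells placed by a list they were at most at 0.812 and 2.85. At d14 the cells in no list were 4.47%. METTL23 was at 1.97 and 0.610, with 2.47 at d7.

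In the lipid list 2 of 13 genes were higher and 4 lower. APOE, a carrier of cholesterol that is also a marker of fibroblasts of the lamina propria, was at 7.29 and 28.5, and PLTP at 0.219 and 0.568. FABP5 (4.95 and 0.262) and CD36 (0.679 and 0.00949), which handle fatty acids, were lower, as was CLEC3B (2.73 and 0.0135). These 3 values move with a small group of d1 cells. Of the d1 fibroblasts, 50 held at least 3 counts of the endothelial genes PECAM1, VWF, CDH5, KDR and CLDN5, against 3 at d14, and their median was 6628 UMIs. FABP5 was at 57.5 in them, CD36 at 7.79 and CLEC3B at 31.5. Without these cells FABP5 was at 1.05 at d1 and CLEC3B at 0.587. The log2 ratios were then -1.66 for FABP5, -1.19 for CD36 and -2.60 for CLEC3B in place of -3.80, -2.83 and -4.64, and 360 genes were higher and 259 lower. In fibroblasts of d0, d7 and d21 CLEC3B was at 0, 0.0175 and 0.0186, so that d1 stood above each other age. CLEC3B was also at 4.97 at d1 and 0.0220 at d14 in the other kept cells, above its level in fibroblasts at both ages. The part of RNA from other cells in its difference was not tested.

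Further large differences were in genes that other cells of the same library held at far higher levels. DISP2 was at 7.16 and 0.186 in fibroblasts and at 63.8 and 0.430 in the other kept cells, S100G, a calcium carrier of epithelium, at 2.97 and 0.0217 against 27.4 and 0.596, and DMBT1 at 1.45 and 0.00677 against 13.5 and 0.310. LOC100152327 was at 0.151 and 23.6 against 0.167 and 239, and JCHAIN, which joins immunoglobulins in plasma cells, at 0.0227 and 4.28 against 0.0173 and 24.4. Each of these genes was higher in fibroblasts at the age at which the other kept cells held more of it. LOC100152327 and JCHAIN were also uneven among the d14 fibroblasts. They were at 469 and 53.2 in 77 cells with fewer than 2 counts in the leading marker list of the grouping below. In the cells placed by a list they were at most at 21.2 and 4.32. The part of RNA from other cells, or of other cells within the rule, in the 626 differences (7.03% of all measured genes) was not tested.

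To set the mix of fibroblasts aside, each was placed by the list in which it held the most counts relative to the mean. The lists are led by ADAMDEC1 (with CCL11, CFD, FABP4 and APOE), by WNT5A (with F3, SOX6, BMP5, BMP7, FRZB, POSTN and PDGFRA) and by OGN (with PI16, CD34, C7, MFAP5, CLEC3B, CCDC80, OSR1 and GPX3). The ADAMDEC1 list led in 19.1% of cells at d1 (17.3 to 20.9) and 55.1% at d14 (52.7 to 57.5), the WNT5A list in 23.7% and 28.7%, and the OGN list in 44.9% (42.6 to 47.3) and 11.8% (10.3 to 13.4). ADAMDEC1 was itself higher at d14 within the cells of the WNT5A list (32.5 and 66.0) and of the OGN list (29.8 and 85.9), so these shares follow levels of the list genes and do not count a cell type. PI16, CCL11 and FABP4 were at or near 0 in both libraries. Leaving CLEC3B, CD34 and FABP4 out gave 44.2% and 14.0% for the OGN list, and leaving out the cells with endothelial counts 43.4% and 11.8%.

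Of 341 higher genes outside the lists, 181 passed 2-fold in all 3 groups, 155 in 1 or 2 of them and 5 in none. Of 276 lower genes 178 passed in all, 96 in 1 or 2 and 2 in none. These genes were called on the sum of the same cells, so the counts are partly set by the selection. Over all genes measured within the ADAMDEC1, WNT5A and OGN lists, 375 of 8731, 527 of 8897 and 574 of 8947 were higher. In the same order 295, 280 and 326 were lower. No difference between the groups was tested. IGF1 had log2 ratios of 3.34, 3.81 and 3.84 in cells of the ADAMDEC1, WNT5A and OGN lists, and FN1 2.32, 2.94 and 3.31. FOS had -3.29, -4.02 and -3.25. MMP1 was at 5.96 at d14 in WNT5A-list cells and 1.63 and 1.53 in those of the ADAMDEC1 and OGN lists, with 0.0592, 0.306 and 0.102 at d1. MMP3 was likewise at 3.48 in WNT5A-list cells at d14 against 0.562 and 1.15. IGF1 was at 5.35 in WNT5A-list cells and at 10.3 in ADAMDEC1-list cells at d14, and KITLG at 2.53 and 0.690. COL4A5 was at 3.84 and 2.97 in WNT5A-list cells, a log2 ratio of -0.36, against -1.56 and -1.24 in those of the ADAMDEC1 and OGN lists.

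**Figure D4:**
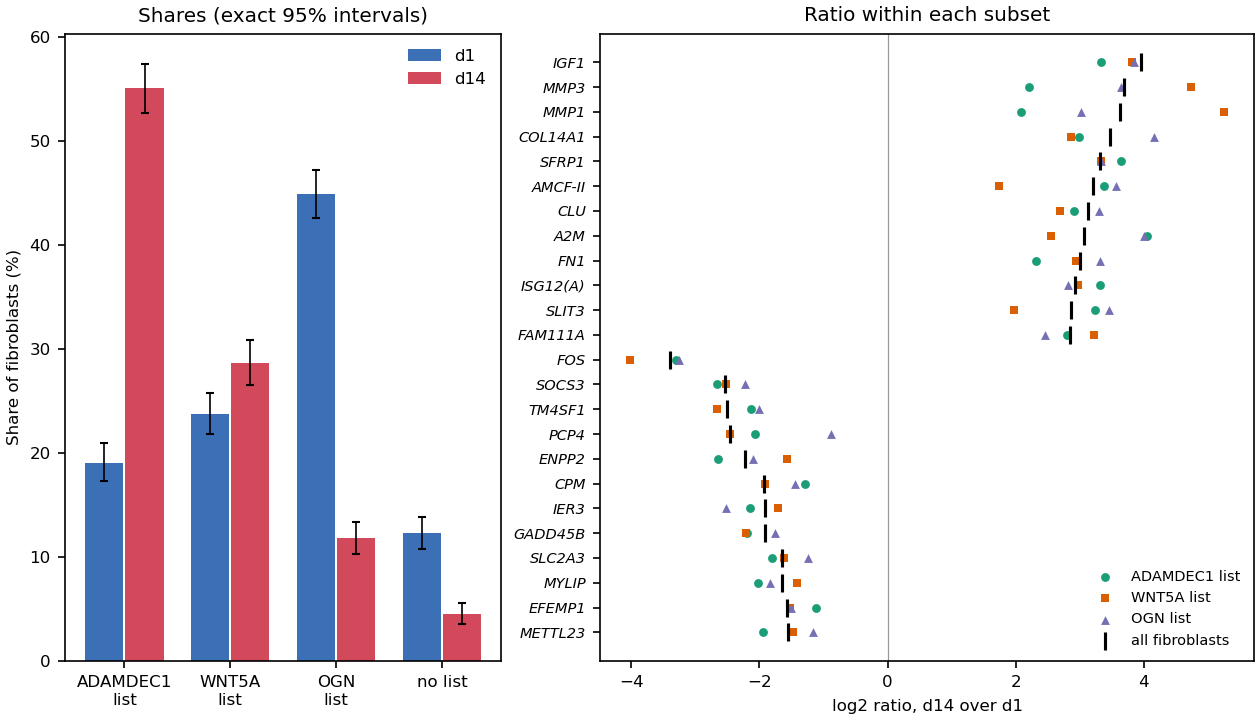
Left, share of fibroblasts (%) led by each marker list at d1 (blue) and d14 (red), with exact 95% intervals; shares follow the levels of the list genes, and the OGN list led in 44.9% at d1 and 11.8% at d14. Right, log2 ratio of d14 over d1 of the 24 named rises and falls within the cells of each list (symbols) and in all fibroblasts (black bar). Each gene kept its direction in all 3 groups, which is partly set by choosing the genes on the sum of these cells.

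Other cells of the same libraries showed part of the picture. The immediate early list had a median log2 ratio of -1.28 in RGS5-high cells (314 at d1 and 609 at d14), -1.86 in cells with EPCAM and no matrix gene (3488 and 126) and -0.81 in cells with PTPRC and no matrix gene (567 and 6750), against -1.69 in fibroblasts. The interferon list had medians of 0.96, -0.01 and 1.22 in the same order, against 1.09. The fibrillar collagen list stood at 1.19 in RGS5-high cells and near 0 in the others, as did the contractile list, at 1.80. The EPCAM and PTPRC groups were chosen for 0 counts of the matrix genes, a limit the RGS5-high cells did not have. COL14A1, for example, was at 0.00561 and 0.0314 in the EPCAM group and at 0 and 0.0198 in the PTPRC group. With 0.1 added such levels give ratios near 0, so for collagens these values do not compare the groups. FN1 was at 0.613 and 16.7 in RGS5-high cells, a log2 ratio of 4.56. SLIT3 was at 0.276 and 0.298 there, and SFRP1 at 0.123 and 0.304. For complement the median was 0.70 in RGS5-high cells against 1.40 in fibroblasts. With 1 library per age these differences between cell groups were not tested.

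**Figure D5:**
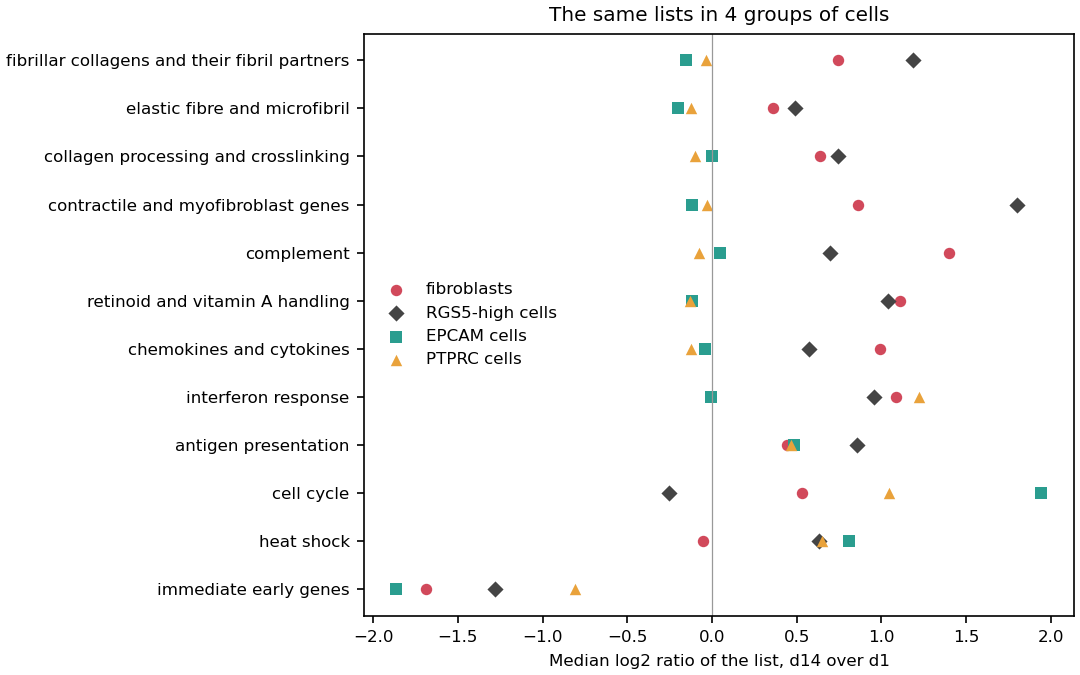
Median log2 ratio of d14 over d1 for 12 gene lists, measured in fibroblasts, RGS5-high cells, EPCAM cells and PTPRC cells (1 symbol each). The immediate early list lay at -1.69, -1.28, -1.86 and -0.81 in the 4 groups. The fibrillar collagen list lay at 0.74 and 1.19 in fibroblasts and RGS5-high cells. It lay close to 0 in the other 2 groups, which were chosen for 0 counts of the matrix genes, so this is not a comparison of the groups.

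The d21 and d0 libraries, which the comparison did not use, gave a second pair. Among 615 genes with a mean level of at least 2 there, 14.1% were at least 2-fold higher at d21 than at d0 and 6.83% lower. Of the 64 such genes that were higher at d14 than at d1, 39 (60.9%) were higher at d21 and 0 lower. The cut used the levels of this pair, so a gene low at d0 passed it only if it was high at d21. At d0 and d21, IGF1 (0.249 and 4.77), A2M (0.373 and 5.88) and COL14A1 (0.996 and 8.33) passed in this way. MMP3 (0.0622 and 0.155), low in both, was left out. The shares are therefore partly set by the cut. IGF1 had a log2 ratio of 3.80 in this pair, A2M 3.66, COL14A1 2.94, FN1 1.85 and COL18A1 1.67. CCL5 (6.23) and IFI6 (6.15), which other kept cells also held, had larger ratios. Other genes higher at d14 did not pass 2-fold in this pair, among them COL15A1 (-0.09), ALDH1A3 (-0.09) and PTGS1 (0.21). PTGS1 and MMP1 had levels below the cut of 2 at both d0 and d21, and MMP1 was at -1.73. Of the 41 genes past the cut that were lower at d14, 10 (24.4%) were lower at d21 and 6 were higher. FOS had a ratio of -0.22 and GADD45B -1.31. The d0 library held 76 fibroblasts, so its levels are less precise, and d21 over d0 covers other ages.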

How the data were processed

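Counts of UMIs per gene and barcode were used as deposited, 1 matrix per library, which the authors made with Cell Ranger 3.1.0 and STAR, per the labels, on the porcine genome Sscrofa11.1. The methods name a forced 5000 cells, but the matrices held between 10824 and 16975 barcodes. The cells of each age were mixed from 5 piglets, so a library is 1 sample. Cells with at least 200 genes were kept (20648 genes, 0 unmapped columns). Doublets were not called or removed. Counts of the fibroblasts were summed per library, and exact intervals came from SciPy 1.17.1 under Python 3.11.15. No p-value was computed. The calling step was run on counts simulated from the d1 profile with planted changes and counting error only. Such counts hold no variation between libraries and no RNA of other cells, so they say nothing on the calls made here.

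The members, the 27 gene lists and the naming rule were chosen with earlier results of these data known. Named genes are the 12 largest rises and falls with a mean level of at least 0.5 that were at least 2-fold above the other kept cells in the library where they were higher (LOC symbols, mitochondrially encoded, ribosomal protein and rule genes left out), the 5 largest in each direction that failed this, up to 2 per list and direction, and the markers. Other list members were named after their values were seen. In all 173 of 173 named genes were matched to RefSeq by symbol. There were 22 alternative settings, of which those on list composition, low immediate early RNA and endothelial counts, like the comparison of d21 with d0, were chosen after the data were seen. Values of a few genes are not reported.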

Additional observations from a re-analysis of the deposited data

How the results depend on the processing

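Of 85 named genes past 2-fold, all that were measured kept their direction under 20 of 22 settings. A pseudocount or a filter on low levels cannot turn a direction, and the genes were picked for large ratios in these same counts. The kept directions are therefore partly set by the selection. Without cells holding a count of another cell type's gene 84 did, the exception being JCHAIN, whose cells were removed, and in cells with under 10 UMIs of 9 immediate early genes per 10000, 73 of the 82 measured did. A pseudocount of 1 left 49 past 2-fold, and centring on the median left 81. The genes higher at d14, 348 as reported, numbered 681 with a pseudocount of 0.01, 61 with 1, 124 with a minimum level of 1, 527 within the WNT5A list, 574 within the OGN list and 1389 in cells low in immediate early RNA. The lower genes, 278 as reported, numbered 59 with a pseudocount of 1, 80 with a minimum level of 1 and 919 in cells low in immediate early RNA. Fewer genes pass with a larger pseudocount or minimum by construction, and the last setting rests on 32 d1 cells. In it the log2 ratio turned for SOCS3 (0.75), IER3 (1.37), SLC2A3 (1.10), IRF1 (0.72), CD36 (0.11), ERRFI1 (1.15), DNAJB4 (0.20), DNAJB1 (0.33) and PFKFB3 (0.72), and the cause was not tested. SOCS3 and IER3 belong to the immediate early list, and that setting selects cells for few counts of 9 such genes. The log2 ratio of the fibroblast share, -0.26 (-0.36 to -0.17), was -0.38 with at least 500 genes per cell and -0.60 with under 20% mitochondrially encoded counts. No paired analysis was possible because each age is 1 library and no test was made. Depth limits the lowest genes, since 3 counts are a level of 0.00619 at d1 and 0.00407 at d14.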

Other observations

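Several genes were higher at d14 than at both d1 and d21 in the fibroblasts of these libraries. CXCL14 was at 231 per 10000 at d14 and 85.5 at d21, ADAMDEC1 at 108 and 29.7, NRG1 at 3.76 and 1.10, F3, the initiator of clotting, at 1.58 and 0.118, and PTGS1 at 2.20 and 0.955. Of these, F3 (0.433), ADAMDEC1 (42.4) and NRG1 (1.19) had d1 levels above those of d21. DCN, a gene of the selection rule, was at 20.8 at d14 and 9.73 at d21.

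HBB, a hemoglobin chain that marks erythroid cells, was at 48.7 in the 166 cells that passed the rule at d7. It was at 0.0784 at d1, 0.00271 at d14 and 5.67 at d21. The part of RNA from other cells in these values was not tested. Among the fibulins FBLN1, FBLN5 and EFEMP2 were higher at d14 than at d1 while EFEMP1 was lower.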
